A study of Sus scrofa with 12 samples.

Results

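10 antiviral genes that type I interferon switches on were followed in the loin muscle of Iberian pigs with tough and with tender meat. They are *MX1*, *MX2*, *RSAD2*, *ISG15*, *IFIT1*, *IFIT3*, *OAS1*, *IFI44*, *USP18* and *IFIH1*, chosen by name, and all 10 are among the 28212 annotated genes of the pig chromosomes. Of the 10, 8 had a mean above 0.5 FPKM (the abundance Cufflinks gives, scaled for transcript length and library size) and could be tested, whereas *MX2* and *IFIH1* stayed below it. The Tough group held 6 castrated males with the highest breeding values for shear force, 1.76 to 2.40, and the Tender group 6 of those with the lowest, -1.09 to -0.98. All came from 1 purebred closed line, were chosen so that no 2 shared a parent, and were fattened outdoors on acorns and grass. The labels give no treatment, infection or age. RNA of the *Longissimus dorsi* of each animal gave 1 library, so that a p-value measures the spread between animals. A further Tender animal of the study was not analysed here.

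Type I interferons are secreted when a cell senses viral nucleic acid. They bind the receptor of *IFNAR1* and *IFNAR2*, whose kinases JAK1 and TYK2 pass the signal on to transcription factors, among them IRF9, that bind an interferon-stimulated response element near the target genes. The products block viral entry, RNA translation, RNA stability or budding, and muscle fibres can make them as most cell types can. In bulk muscle, fewer cells of a type and less RNA per cell cannot be told apart.

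The core of that element was searched as GAAA, any 2 bases and GAAA on both strands, where its reverse complement reads TTTC, any 2 bases and TTTC and neighbouring matches may overlap, from 250 bases before to 50 bases after each annotated start. It was found at 6 of the 10 genes and in 3.58% of 19559 protein-coding promoters of the same length. The following stretches of Sscrofa11.1 (RefSeq), 5′ to 3′ on the strand of the gene with the fixed letters of each match in capitals, are shown so that the matches can be read in place.
ISG15 (chr6:63363052-63363117, plus strand): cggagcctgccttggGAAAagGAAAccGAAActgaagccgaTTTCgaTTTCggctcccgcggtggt
IFIT3 (chr14:101214648-101214718, plus strand): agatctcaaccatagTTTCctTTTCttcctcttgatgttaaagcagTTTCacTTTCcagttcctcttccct
IFIT1 (chr14:101237379-101237418, plus strand): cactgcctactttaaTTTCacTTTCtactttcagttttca
RSAD2 (chr3:128897915-128897954, minus strand): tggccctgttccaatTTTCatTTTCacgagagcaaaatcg
USP18 (chr5:70183163-70183202, plus strand): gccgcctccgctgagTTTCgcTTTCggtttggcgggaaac
IFI44, upstream of the assembled start (chr6:134650222-134650267, minus strand): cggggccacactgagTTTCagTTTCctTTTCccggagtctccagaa

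*ISG15* carried 3 matches between positions -134 and -99 from its start (negative is upstream), *IFIT3* 2 and *IFIT1*, *RSAD2* and *USP18* 1 each, and *IFIH1*, not printed, carried 3. The windows of *MX1*, *MX2*, *OAS1* and *IFI44* held none at the annotated start. For *IFI44* transcripts of Tough 1, Tender 2 and Tender 6 began 372 bases upstream of that start, and the window at this position held 2 matches. For *ISG15*, *OAS1* and *IFIH1*, 1 assembled start each was scanned in the same way, and these windows held none. That of *ISG15* was from Tough 5, 2604 bases upstream of the annotated start. Those of *OAS1* and *IFIH1* were from Tough 2 and lay inside the gene. Some other transcripts began near the annotated start, where the windows of *ISG15* and *IFIH1* held matches. Examples are *ISG15* in Tough 6, from 63363196 (annotated 63363201), and *IFIH1* in Tender 3, from 68985140 (annotated 68985145). The letters of a match do not show that a factor was bound.

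The authors assembled each library on its own, into 25798 to 31353 transcripts, and 66.9% to 77.8% of them lay at least 50% within the exons of 1 annotated gene and were assigned to it. For each gene, the FPKM of every assigned transcript was multiplied by its length, and the sum was divided by the number of exonic bases. A gene with no assigned transcript is listed at 0, which may mean that it was not assembled or that its transcript ran beyond the annotation. A second measure, per exon base, counted the part of every transcript that lay in the exons of the gene. Read depth is not known from the files, but the coverage that 1 FPKM stood for ranged from 6.54 in Tender 4 to 10.2 in Tough 6, so that low values rest on few reads. The skeletal muscle markers were abundant in all 12 libraries, with summed levels per exon base of 33149 to 43614 FPKM in Tough and 25426 to 42022 FPKM in Tender. Tough 1 and Tender 2 stood apart from the other 10 libraries in these genes, and values that rest on them are therefore given with and without them.

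Of 12 interferon genes looked up by symbol, 7 are annotated, and these were not detected. Interferon genes under other symbols were not looked up. *IFNA1*, *IFNB1*, *IFNE*, *IFNK*, *IFNG* and 2 further annotated interferon genes, 7 in all, are listed at 0 in all 12 libraries by both measures. The receptor was present in both groups, with overlapping ranges. *IFNAR1* had 2.07, 2.33 and 2.84 FPKM as the lowest, median and highest value in Tough, against 1.82, 2.50 and 4.59 FPKM in Tender. *IFNAR2* had 0.277 to 0.879 FPKM in Tough and 0.263 to 1.02 FPKM in Tender. Of 9 receptor and kinase genes, 8 were tested and 0 passed the thresholds in either direction, 4 of them were higher in Tough and 4 in Tender, and their median log2 fold change was -0.06.

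*IFIH1* encodes MDA5, a cytosolic sensor of double-stranded RNA. It lies on chromosome 15 from 68930998 to 68985145 on the minus strand. It had 0, 0.227 and 0.541 FPKM as the lowest, median and highest value in the 6 Tough libraries, against 0, 0.122 and 0.548 FPKM in the 6 Tender libraries, and is listed at 0 in 1 Tough and 2 Tender libraries. The highest values were those of Tender 4, Tough 1 and Tender 2. Of 12 annotated genes of viral RNA and DNA sensing, 3 are listed at 0 throughout and 4 were tested, among them the adaptor *MAVS* and the factor *IRF3*, with 0 passing the thresholds.

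*OAS1*, which makes the 2′-5′ oligoadenylates that activate RNase L, had the highest median of the members. It lies on chromosome 14 from 38851083 to 38867427 on the minus strand. It had 1.38, 3.86 and 37.8 FPKM as the lowest, median and highest value in Tough, against 2.13, 3.62 and 17.5 FPKM in Tender. The highest values were Tough 1 and Tender 2, and the other 5 libraries of each group lay between 1.38 and 5.22 FPKM in Tough and between 2.13 and 4.82 FPKM in Tender. In Tough 1, a transcript of 116 bases carried 366.4 FPKM. Per exon base Tough 1 had 26.1 FPKM and Tender 2 had 16.2 FPKM, a measure that still holds this short transcript. From transcripts of at least 300 bases alone, Tough 1 had 11.4 FPKM and Tender 2 had 14.9 FPKM, above the 1.38 to 5.22 FPKM of the other 10, and the log2 fold change of Tough over Tender was -0.11.

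*MX1*, a GTPase that traps viral nucleocapsids, lies on chromosome 13 from 204843049 to 204868927 on the plus strand. It had 0.313, 0.877 and 5.64 FPKM as the lowest, median and highest value in Tough, against 0.142, 0.740 and 1.28 FPKM in Tender. Tough 1 was far above the others, with 1 transcript of 16 exons for which the deposited Cufflinks interval was 5.28 to 6.12 FPKM, whereas the interval of the next highest library, Tough 2, was 1.26 to 1.69 FPKM. Tender 2 had the highest Tender value of *MX1* but lay within the range of the other Tough libraries, 0.313 to 1.45 FPKM.

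*MX2*, the neighbouring paralogue, was the lowest member, with 8 of 12 libraries listed at 0. It lies on chromosome 13 from 204798633 to 204821612 on the plus strand, and the annotation gives it 8 exons. In Tough 1 and Tough 2 the assembled transcripts had 14 or 15 exons and ended up to 10332 bases past the annotated end, so only 24.5% to 26.5% of their bases lay in the gene and none was assigned. Cufflinks gave those of Tough 1 at 0.562 (interval 0.435 to 0.690) and 1.25 (1.08 to 1.43) FPKM, and that of Tough 2 at 0.901 (0.778 to 1.02) FPKM. Per exon base *MX2* had 0, 0.223 and 1.07 FPKM as the lowest, median and highest value in Tough, against 0, 0.0677 and 0.392 FPKM in Tender.

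**Figure D1:**
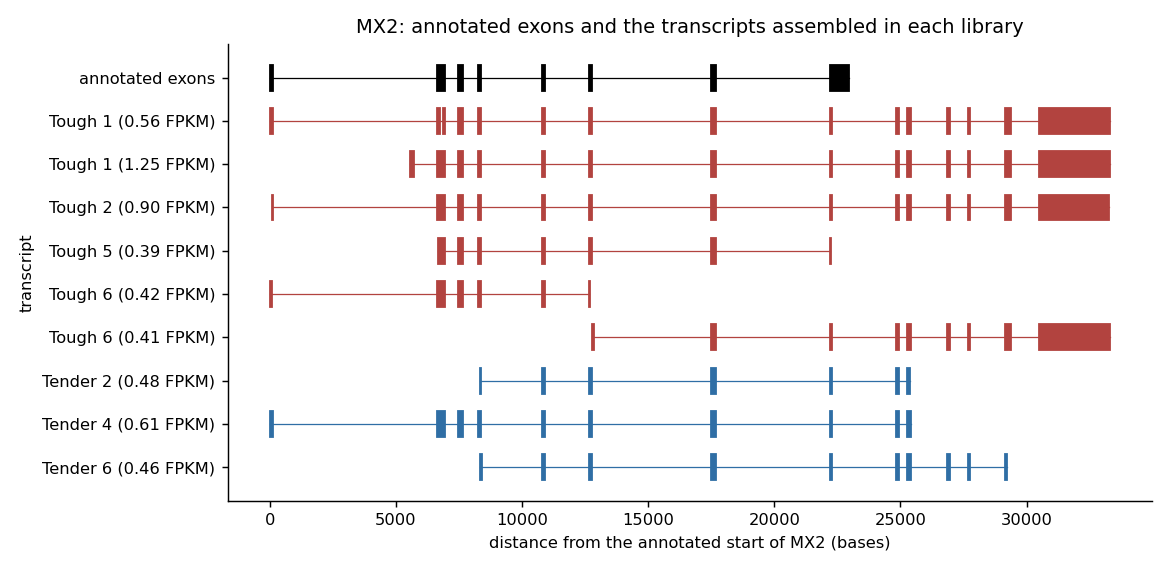
Exons of *MX2* as annotated (black) and as assembled in each library (Tough red, Tender blue), against the distance in bases from the annotated start, with the Cufflinks FPKM of each transcript. Transcripts run past the annotated end in 6 of the 7 libraries that have any, by 10284 to 10343 bases in Tough 1, Tough 2 and Tough 6 and by 2386 to 6263 bases in Tender 2, Tender 4 and Tender 6.

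*IFIT1* and *IFIT3*, which bind viral RNA and block its translation, lie next to each other on chromosome 14, *IFIT3* from 101214730 to 101225169 and *IFIT1* from 101237403 to 101249486, both on the plus strand. *IFIT1* had 0.627, 1.23 and 4.60 FPKM as the lowest, median and highest value in Tough, against 0.678, 1.34 and 3.49 FPKM in Tender. *IFIT3* had 0.209, 0.478 and 2.53 FPKM as the lowest, median and highest value in Tough, against 0.192, 0.558 and 5.19 FPKM in Tender. For both genes the 2 highest libraries were Tough 1 and Tender 2, and the other 10 had at most 1.94 FPKM of *IFIT1* and 0.659 FPKM of *IFIT3*.

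*RSAD2* encodes viperin, which makes a chain-terminating nucleotide, and lies on chromosome 3 from 128880853 to 128897809 on the minus strand. It had 0, 0.615 and 2.80 FPKM as the lowest, median and highest value in Tough, against 0.210, 0.738 and 2.33 FPKM in Tender. The 0 was Tough 1, whose single transcript of 5791 bases had 49.7% of its bases in the gene and so missed the 50% minimum. Per exon base Tough 1 was the highest library at 3.06 FPKM, and the lowest, median and highest values were 0.208, 0.841 and 3.06 FPKM in Tough and 0.259, 0.592 and 1.82 FPKM in Tender.

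*ISG15*, a ubiquitin-like protein that is coupled to viral and cellular proteins, lies on chromosome 6 from 63363201 to 63364211 on the plus strand. It had 0, 2.11 and 6.36 FPKM as the lowest, median and highest value in Tough, against 1.53, 3.50 and 24.5 FPKM in Tender. Tough 1 and Tough 5 are listed at 0 because their transcripts reached upstream of the gene, with 27.9% and 47.2% of their bases in it. Per exon base they had 7.50 and 2.36 FPKM, and the lowest, median and highest values were 1.92, 3.14 and 7.50 FPKM in Tough and 1.09, 2.96 and 22.2 FPKM in Tender. Tender 2 was above all other libraries by both measures.

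*USP18* removes ISG15 from proteins and inhibits signalling at the receptor, and lies on chromosome 5 from 70183321 to 70227990 on the plus strand. It had 0, 0.424 and 1.51 FPKM as the lowest, median and highest value in Tough, against 0.261, 0.440 and 1.10 FPKM in Tender. *IFI44*, a cytoplasmic protein with antiviral and antiproliferative activity in human cells, lies on chromosome 6 from 134634679 to 134649857 on the minus strand. It had 0.228, 0.757 and 3.27 FPKM as the lowest, median and highest value in Tough, against 0, 1.01 and 2.60 FPKM in Tender, and again Tough 1 and Tender 2 were the 2 highest libraries of both genes.

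**Figure D2:**
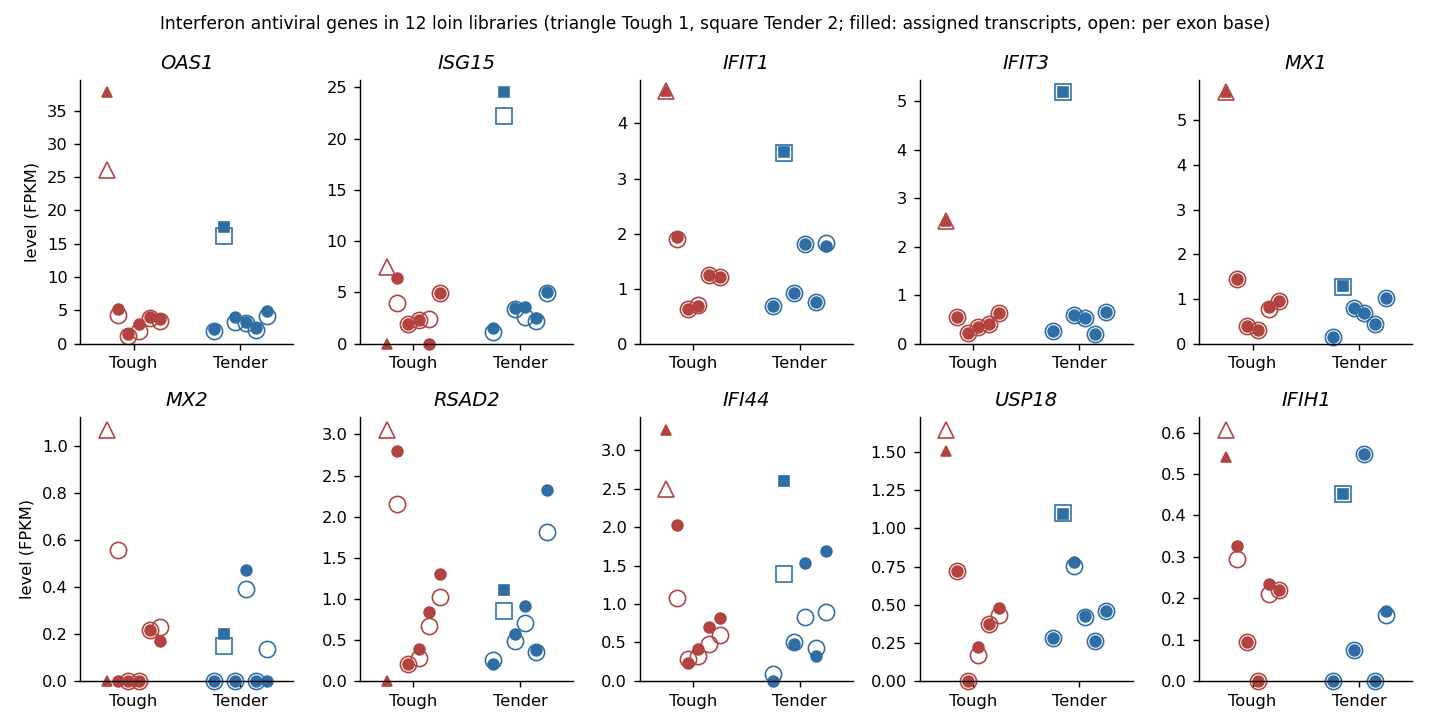
Level of each gene in FPKM in the 6 Tough (red, left) and 6 Tender (blue, right) libraries, with Tough 1 as a triangle and Tender 2 as a square, from assigned transcripts (filled) and per exon base (open). The groups overlap in every panel. Tough 1 of *RSAD2*, *ISG15* and *MX2* is at 0 when filled and among the highest when open.

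The members were ordered per exon base, by the median of the 12 libraries. *OAS1* (3.30 FPKM) and *ISG15* (2.96 FPKM) led and could not be ordered, since *OAS1* was the higher in 5 of 12 libraries. *ISG15* exceeded *IFIT1* (1.23 FPKM) in 12 of 12 libraries, and *IFIT1* exceeded *MX1* (0.791 FPKM) in 11 of 12. *MX1*, *RSAD2* (0.684 FPKM), *IFI44* (0.547 FPKM) and *IFIT3* (0.539 FPKM) followed one another in only 6 or 7 of 12 libraries, within their spread. *USP18* (0.427 FPKM) lay below *IFIT3* in 8 of 12 and above *IFIH1* (0.184 FPKM) in 10 of 12 libraries, and *MX2* (0.143 FPKM) came last, though *IFIH1* was the higher in only 5 of 12. The place of *MX2* depends on the annotation, since only annotated exons are counted and most of its assembled transcripts ran past their end.

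The question of the design was whether these genes differ between tough and tender loins, and no member did by the test and thresholds used here. limma with Benjamini-Hochberg adjustment called 0 of the 8 tested members, against a background of 0% of 9122 genes. The thresholds were an unadjusted limma value of 0.05, a Benjamini-Hochberg value of 0.10 and a 1.5-fold difference on the log2(FPKM + 0.5) scale, where changes of genes at low levels come out too small. By the unadjusted p alone, 0 members and 225 genes (2.47%) passed 0.05, of which 66 genes (0.724% of all) were higher in Tough. An exact Wilcoxon test called 0 genes, and 192 genes with 0 members had an unadjusted p ≤ 0.05. The members divided evenly, 4 higher in Tough and 4 higher in Tender, whereas 39.9% of all tested genes were higher in Tough. That share was 49.8% after median-of-ratios scaling and 50.3% after quantile normalization, and the members stayed 4 of 8. The median log2 fold change was -0.03 for the members and -0.04 over all genes. Per exon base 5 of 8 members were higher in Tough, against 38.9% of all genes.

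*MX1* had the largest positive log2 fold change of Tough over Tender, 0.45 (SE 0.44; adjusted p = 0.9999; exact permutation test, two-sided, p = 0.424). The study, with another tool and the further Tender animal, reported *MX1* as differentially expressed and higher in Tough, and its qPCR had the same direction. Here the mean FPKM of *MX1* was 1.59 in Tough, where Tough 1 had 5.64, and 0.726 in Tender. *ISG15* had the largest negative one, -1.28 (SE 0.77; unadjusted limma p = 0.119; exact permutation p = 0.184), but -0.13 per exon base, where Tough 1 and Tough 5 were not at 0. *OAS1* (0.19), *IFI44* (0.14), *IFIT1* (0.03), *USP18* (-0.08), *RSAD2* (-0.13) and *IFIT3* (-0.17) lay between them, each less than its SE from 0. The exact permutation p of the 10 members, *MX2* and *IFIH1* included, ranged from 0.184 to 0.946. With an SE of 0.31 to 0.77, a difference of 1.5-fold in either direction lay within 2 SE of 0 for all 8 tested members.

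The small fold changes moved with single libraries, Tough 1 and Tender 2 among them. Without Tough 1 the median log2 fold change of the tested members was -0.25, without Tender 2 it was 0.27, and without both it was 0.06. *MX1* was 0.06 without Tough 1, 0.58 without Tender 2 and 0.19 without both. *OAS1* was -0.37 without Tough 1, 0.57 without Tender 2 and 0.01 without both. *IFIT3* was -0.45 without Tough 1 and 0.27 without Tender 2, and without both libraries its mean no longer passed the minimum level. Leaving these libraries out, alone or together, called 0 members.

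**Figure D3:**
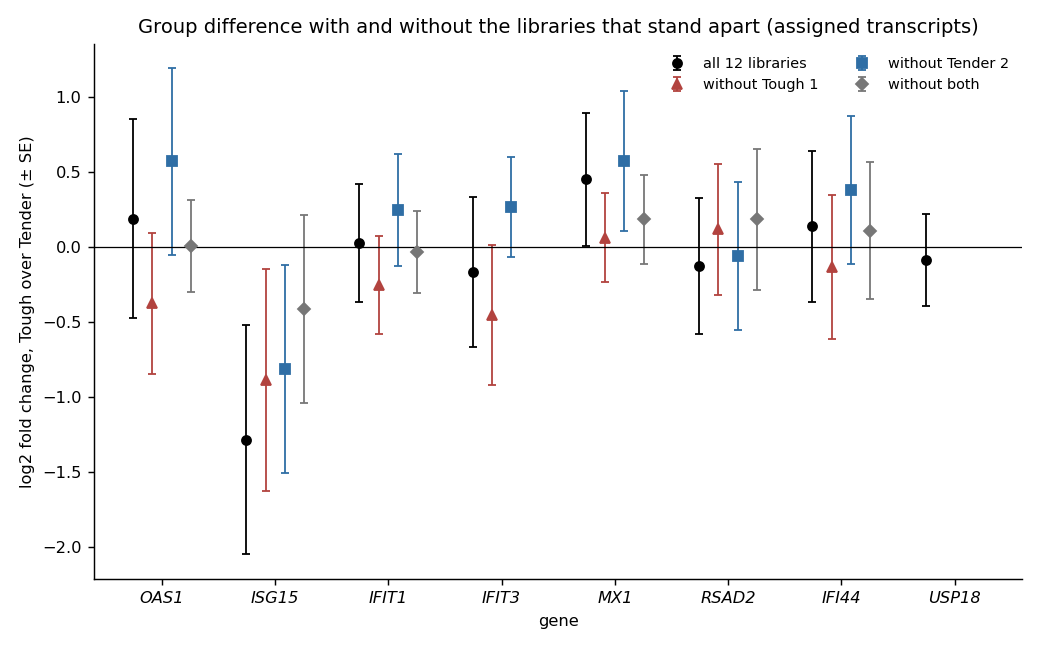
Log2 fold change of Tough over Tender with its SE for the 8 tested genes, from all 12 libraries (black circles), without Tough 1 (red triangles), without Tender 2 (blue squares) and without both (grey diamonds). Without Tender 2 the points lie further to the Tough side. Without Tough 1 those of *OAS1*, *IFIT1*, *IFIT3*, *MX1* and *IFI44* lie further to the Tender side and those of *ISG15* and *RSAD2*, listed at 0 in Tough 1, do not, and a point is missing where the mean no longer passed 0.5 FPKM.

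Other cell markers were read for the same groups. Of 4 annotated red blood cell genes, 2 were tested and both had a lower mean in Tough, neither past the thresholds (the smaller limma adjusted p was 0.805). *HBB*, beta globin, had 124, 168 and 206 FPKM as the lowest, median and highest value in Tough, against 237, 291 and 349 FPKM in Tender. These groups did not overlap, as was so for 9 of 9122 genes (0.0987%). Its part in the values of the interferon genes was not tested.

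Tough 1 or Tender 2 was the highest library for 7 of the 10 members, against 31.8% of all 9122 tested genes, and they made up the highest pair for 5 of 10, against 7.70% of all. Per exon base Tough 1 or Tender 2 was the highest library for 10 of 10, against 30.9%, and they were the highest pair for 6 of 10, against 7.27%. The shares cover only genes above the minimum level. Of the 8 members above it, Tough 1 or Tender 2 was the highest for 7 and they were the highest pair for 5, or 8 and 6 per exon base. *USP18* and *IFIT3* passed the minimum level only with these libraries. Over the 6 members that passed it also without them, one of the 2 libraries was the highest for 5 and both were the highest pair for 3. Tender 4 was the highest library for 34.3% of all genes. The pattern was noticed in these values and is given as a description. Relative to the median of the 12 libraries, the 10 members had a median log2 difference of 1.32 in Tough 1 and 0.98 in Tender 2, against -0.64 to 0.45 in the other 10 libraries, and all tested genes had 0.11 in Tough 1 and 0.01 in Tender 2. Their summed levels were 55.9 FPKM in Tough 1 and 57.4 FPKM in Tender 2, against 5.07 to 21.4 FPKM in the other 10 libraries. The sum of Tough 1 rested on *OAS1*, and from transcripts of at least 300 bases the sums were 29.4 FPKM in Tough 1 and 54.8 FPKM in Tender 2.

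The 2 libraries differed in which members were high. *MX1* was 5.64 FPKM in Tough 1 and 1.28 FPKM in Tender 2. The order of *OAS1* was not stable, since its 37.8 and 17.5 FPKM in Tough 1 and Tender 2 became 11.4 and 14.9 FPKM without transcripts under 300 bases. *ISG15* per exon base was 7.50 FPKM in Tough 1 and 22.2 FPKM in Tender 2, and *IFIT3* 2.53 and 5.19 FPKM. *RSAD2* per exon base was 3.06 FPKM in Tough 1 but 0.851 FPKM in Tender 2, which was exceeded by Tough 2 and Tender 6. With 1 library per animal, no test of a difference between 2 animals is possible.

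**Figure D4:**
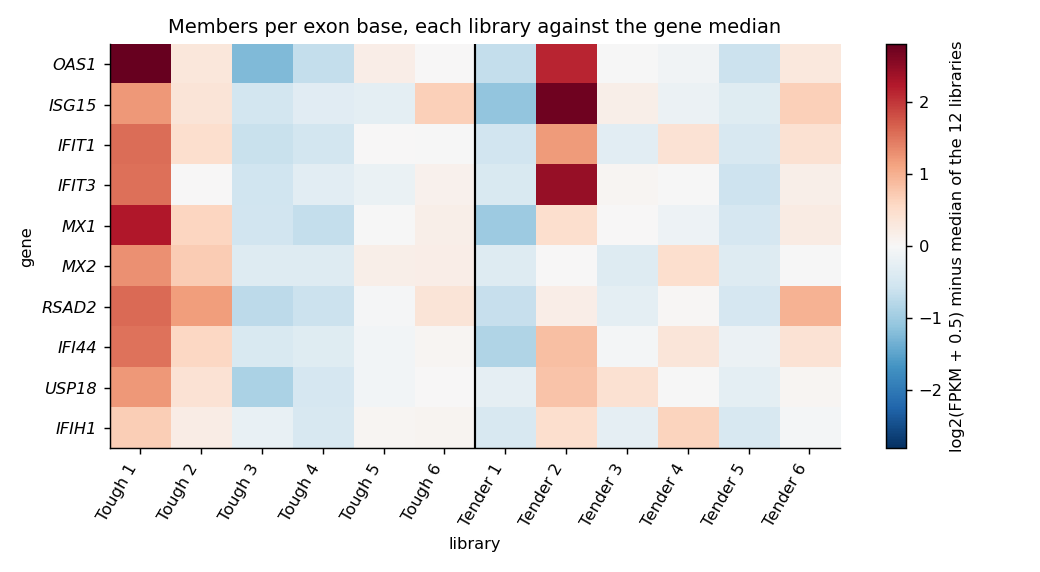
Members (rows) in each library (columns, Tough left of the line, Tender right), per exon base, as log2(FPKM + 0.5) minus the median of the 12 libraries. Tough 1 and Tender 2 are above the median for all 10 genes, Tender 2 by little for *MX2* and *RSAD2*, and Tough 3, Tough 4, Tender 1 and Tender 5 are mostly below it.

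Other genes of the same pathway showed these libraries too. Of 42 annotated genes of a list of other type I interferon genes, 26 were tested and 0 passed the thresholds. Of the 26, 9 were higher in Tough and 17 in Tender, and their median log2 fold change was -0.06. Tender 2 was the highest library for 16 of the 26 and Tough 1 for 8, against 13.7% and 18.2% of all tested genes. Among the 26 are genes, such as *PARP12*, that passed the minimum level only with these 2 libraries. The 5 with the smallest unadjusted limma p were *IRF9*, *TRIM21*, *PML*, *IFI35* and *IFITM3*. *IRF9*, a DNA-binding transcription factor of the interferon response, had a log2 fold change of -1.004 (SE 0.58, unadjusted p = 0.109), but Tough 1 is listed at 0 for it and per exon base has 9.17 FPKM, and the log2 fold change is -0.19. *TRIM21*, an antibody receptor in the cytosol, had -0.39 (unadjusted p = 0.198), *PML*, a nuclear body protein, -0.33 (0.205), *IFI35* -0.36 (0.262) and *IFITM3*, which blocks viral entry, 0.87 (0.311), which was 0.13 per exon base.

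Genes that interferon gamma induces separated the 2 libraries. Of 16 annotated genes of that list, 10 were tested and 0 passed the thresholds. Of the 10, 2 were higher in Tough and 8 in Tender, and their median log2 fold change was -0.52. Their median log2 difference from the median of the 12 libraries was 1.02 in Tough 1 and 3.72 in Tender 2. A gene high in Tender 2 alone can pass the minimum level through it, so this median can be raised by the choice of genes. All 16 annotated genes summed to 46.1 FPKM in Tough 1 and 378.3 FPKM in Tender 2, against 13.8 to 28.5 FPKM in the other 10 libraries. *GBP1*, a GTPase, had 5.71 FPKM in Tough 1 and 169.9 FPKM in Tender 2, against 1.13 to 3.72 FPKM in the other 10 libraries. *IRF1*, a transcription factor, had 1.59 FPKM in Tough 1 and 20.0 FPKM in Tender 2, against 0.501 to 1.25 FPKM. For the 8 tested members the same median difference was 1.55 in Tough 1 and 1.25 in Tender 2.

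**Figure D5:**
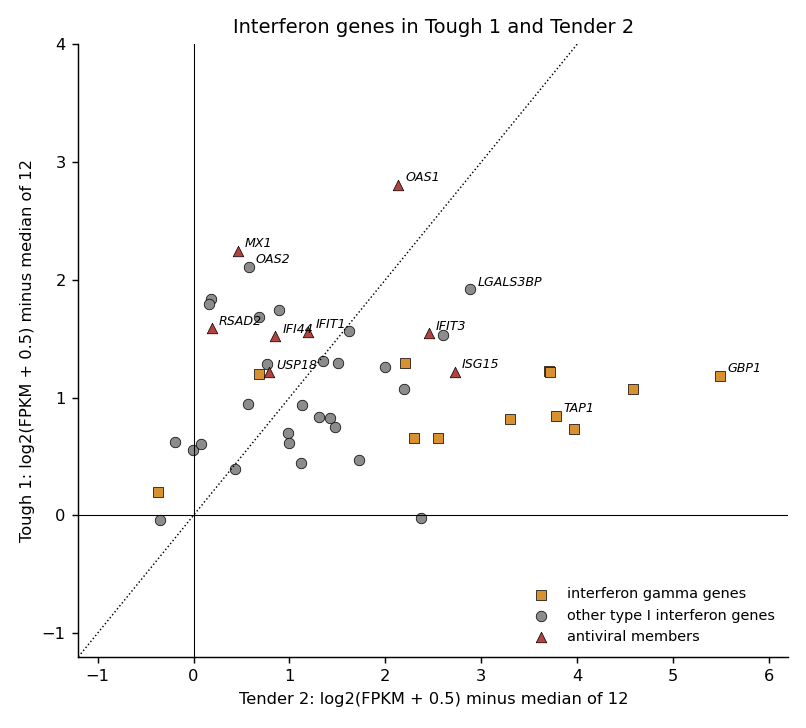
Tough 1 (vertical) against Tender 2 (horizontal), each as log2(FPKM + 0.5) minus the median of the 12 libraries, per exon base, for the tested members (red triangles), other type I interferon genes (grey circles) and interferon gamma genes (orange squares), with the line of equal difference dotted. *MX1*, *OAS1*, *RSAD2*, *IFI44*, *IFIT1* and *USP18* lie above the line, and *GBP1* and most interferon gamma genes lie far to its right.

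Macrophage markers were high in these 2 libraries, whereas the sums of plasmacytoid dendritic cell and endothelial genes lay within the range of the others. Of 11 macrophage genes, 10 were tested and 8 of them had their highest value in Tender 2 and 1 in Tough 1. Over all tested genes these shares were 13.7% and 18.2%. The macrophage genes summed to 59.6 FPKM in Tough 1 and 103.3 FPKM in Tender 2, against 17.6 to 43.2 FPKM in the other 10 libraries. *C1QB*, a complement chain made by macrophages, had 15.9 FPKM in Tough 1 and 31.2 FPKM in Tender 2, against 3.43 to 10.5 FPKM. Lymphocyte genes summed to 5.83 FPKM in Tough 1 and 4.03 FPKM in Tender 2, against 0.851 to 4.26 FPKM, and the B cell markers *CD79A* and *MS4A1* are listed at 0 in all 12 libraries. Per exon base both libraries were above the others in the lymphocyte sum, with 5.66 FPKM in Tough 1 and 5.95 FPKM in Tender 2, against 0.823 to 3.95 FPKM. Of 4 annotated plasmacytoid dendritic cell genes, the cells that secrete most interferon, the sums were 1.02 FPKM in Tough 1 and 1.73 FPKM in Tender 2, against 0.436 to 6.68 FPKM. Endothelial genes summed to 40.7 FPKM in Tough 1 and 35.4 FPKM in Tender 2, within the 18.9 to 46.8 FPKM of the others. The part of these cells in the levels of the interferon genes was not tested.

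The genes most like the members were ranked by Pearson's correlation, over the 12 libraries, of log2(FPKM + 0.5) with the mean standardised profile of the 8 tested members. The 10 highest with a symbol were *CMPK2* (0.95), *IFI44L* (0.93), *PARP12* (0.92), *HERC6* (0.90), *PLAC8* (0.89), *LGALS3BP* (0.87), *ERAP2* (0.86), *TNFSF10* (0.86), *NEU1* (0.82) and *GM2A* (0.82). Per exon base, 5 of the 10 were the same. *CMPK2* lies beside *RSAD2* in mammals and makes nucleotides, and it had 2.23 FPKM in Tough 1 and 2.29 FPKM in Tender 2, against 0 to 1.02 FPKM elsewhere. Without these 2 libraries the correlation was 0.88 for *CMPK2*, 0.83 for *IFI44L*, 0.96 for *PARP12* and 0.78 for *HERC6*, and for the other 6 it ran from 0.49 (*GM2A*) to 0.76 (*ERAP2*). Only genes above the minimum level were ranked, and *CMPK2*, *PARP12* and *PLAC8* lie under it without Tough 1 and Tender 2. All coefficients rest on the same 12 libraries and are descriptions.

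The members themselves varied together in the same way. With the mean profile, of which each is a part, *IFI44* (0.95), *IFIT1* (0.95), *USP18* (0.89), *OAS1* (0.89), *IFIT3* (0.88) and *MX1* (0.82) had high coefficients over 12 libraries, and *RSAD2* (0.38) and *ISG15* (0.34), both listed at 0 in Tough 1, had low ones. Per exon base *RSAD2* reached 0.84 and *ISG15* 0.86. Without Tough 1 and Tender 2 the coefficients per exon base were 0.82 to 0.95 for the 8 members. Each member is part of this profile too, which raises its coefficient, and *USP18* and *IFIT3* lie under the minimum level in those 10 libraries. Of the 10 libraries, which span both groups, Tough 2 and Tender 6 had the highest standardised profile per exon base, 0.53 and 0.36, and Tough 3 and Tender 1 the lowest, -1.19 and -1.17.

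Shear force was compared with the members within each group, because the groups were selected on its breeding value and were separate. Shear force ranged from 7.32 to 10.63 kg/cm2 in Tough and from 2.18 to 3.43 kg/cm2 in Tender. Of 16 relations, 8 members in 2 groups, 0 passed an adjusted p of 0.05 over the 16 (exact permutation test of 720 pairings, two-sided; smallest adjusted p = 0.428 for Pearson's r and 0.803 for Spearman's rho). In Tender all 8 members had a negative r. *IFIT1* had r = -0.81 (exact permutation p = 0.050) and rho = -0.71 (exact permutation p = 0.136), and r was -0.43 without the 2 animals farthest from the median shear force, one of them Tender 2 with the lowest value, 2.18 kg/cm2. In Tough 6 members had a positive r of 0.33 to 0.48, and *RSAD2* and *ISG15*, with Tough 1 listed at 0, had -0.47 and -0.26, which were 0.24 and 0.15 per exon base. Without the 2 Tough animals farthest from the median shear force, one of them Tough 1, r of those 6 members ran from -0.31 (*MX1*) to 0.07 (*IFIT3*). The hardest loin, 10.63 kg/cm2, was Tough 1.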

How the data were processed

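RNA of the *Longissimus dorsi* of 6 Tough and 6 Tender pigs was analysed. Reads were checked (FastQC), trimmed (Trim Galore) and mapped (TopHat2 2.1.0) by the authors, who used Sscrofa11.1 and assembled each library with Cufflinks 2.2.1. The deposited files hold transcripts with FPKM values and other attributes, as the authors' Cufflinks gave them, and no read counts. Libraries were built 4 to a lane, and the lane of each is not given in the sources used here.

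Transcripts were assigned to NCBI Release 106 genes of the same build on their strand (a transcript without strand could match either), with at least 50% of their bases in exons. Gene FPKM was the sum of FPKM times length over exonic length. The authors' FPKM were not rescaled.

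limma 3.58.1 in R 4.3.3 (trend) tested log2(FPKM + 0.5) for 9122 genes with a mean above 0.5 FPKM on the group alone, with adjustment by Benjamini and Hochberg. The study used another tool with thresholds of p 0.05, q 0.10 and 1.5-fold, which were kept. Single values were compared by exact permutation over the 924 splits of 12 animals. All other steps ran in Python 3.11.15 (numpy 2.4.6; scipy 1.17.1; pandas 2.3.3), and matplotlib 3.10.9 drew the figures. The test was tried on simulated data with known changes before use. 

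Members and lists were chosen with earlier results of these data known. All 10 members are named, with up to 5 genes of smallest p for a related list and any gene a result turns on, and the 10 genes of highest correlation. Alternatives were the pseudocount, the minimum level, 2 scalings, 4 other ways to make gene FPKM, robust limma, an exact Wilcoxon test, a block for the animal number, and leaving out single libraries. 2 kinds were added after the data were seen: leaving out both Tough 1 and Tender 2, or either or both of them per exon base, and a minimum transcript length of 300 bases. The animal number does not pair the samples. The Cufflinks intervals are as deposited. Some genes of the lists are counted but not reported by name here.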

Additional observations from a re-analysis of the deposited data

Results flagged for a closer look

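A single library lay far from the other 5 of its group in 15 of 40 sets of 6 values, each of 10 genes in 2 groups by 2 measures that share their reads. Chance marks about 1 in 20 such sets where values are normally distributed, but here 13.2% of the 18244 sets of all tested genes were marked from assigned transcripts and 12.3% of 18786 per exon base. For all tested genes, a high value of Tough 1 or Tender 2 was what stood apart in 2.72% of the sets from assigned transcripts and in 2.70% per exon base. All 15 were high values of Tough 1 or Tender 2. From assigned transcripts, Tough 1 stood apart for *MX1* (5.64 FPKM), *IFIT1* (4.60 FPKM), *IFIT3* (2.53 FPKM) and *OAS1* (37.8 FPKM), and Tender 2 for *ISG15* (24.5 FPKM), *IFIT3* (5.19 FPKM) and *OAS1* (17.5 FPKM). Per exon base, Tough 1 stood apart for *MX1* (5.63 FPKM), *IFIT1* (4.60 FPKM), *IFIT3* (2.53 FPKM), *OAS1* (26.1 FPKM) and *IFI44* (2.50 FPKM), and Tender 2 for *ISG15* (22.2 FPKM), *IFIT3* (5.19 FPKM) and *OAS1* (16.2 FPKM). The deposited Cufflinks interval of the 1 *ISG15* transcript of Tender 2 was 21.8 to 25.6 FPKM. The *OAS1* values of Tough 1 include the transcript of 116 bases. The coverage that 1 FPKM stood for was 7.87 in Tough 1 and 8.36 in Tender 2, and 6.54 to 10.2 over all 12 libraries.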

How the results depend on the processing

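Under all 30 alternatives the number of members past the thresholds stayed 0, though the exact Wilcoxon test had little room to call any gene. The number of all genes past them was 2 per exon base without Tender 2, neither of them a member, and 0 under the other 29 alternatives. The median log2 fold change of the tested members ranged from -0.25 (without Tough 1) to 0.27 (without Tender 2) when single libraries were left out. No shear force relation passed per exon base or with a pseudocount of 0.1.

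The sign of small fold changes depended on the settings. Per exon base it was 0.32 for *RSAD2*. By the highest transcript it was -0.0091 for *IFIT1* and -0.0031 for *IFI44*, and with 90% of a transcript in the gene -0.50 for *OAS1*. With transcripts of at least 300 bases *OAS1* was -0.11. Without Tough 1 and Tender 2, *RSAD2* was 0.19 and *IFIT1* -0.03. Per exon base without Tough 1 it was 0.063 for *RSAD2*, -0.26 for *IFIT1*, -0.45 for *OAS1* and -0.13 for *IFI44*. Per exon base without Tender 2 it was 0.37 for *RSAD2*, 0.35 for *ISG15*, 0.27 for *IFIT3* and 0.040 for *USP18*. Per exon base without both it was 0.11 for *RSAD2*, 0.14 for *ISG15*, -0.043 for *IFIT1* and -0.056 for *OAS1*. With single libraries left out, the range was 0.06 to 0.65 for *MX1*, -0.43 to 0.12 for *RSAD2*, -1.64 to -0.81 for *ISG15*, -0.25 to 0.25 for *IFIT1*, -0.45 to 0.27 for *IFIT3*, -0.37 to 0.57 for *OAS1*, -0.14 to 0.38 for *IFI44* and -0.17 to 0.10 for *USP18*. The cause was not tested. From assigned transcripts *USP18* was under the minimum level and had no value without Tough 1 or without Tender 2, and per exon base it had none without Tough 1. The number of genes with an unadjusted p ≤ 0.05, 225 with all libraries, ran from 147 without Tender 5 to 411 without Tender 4.

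With the animal number as a block, 0 members and 0 genes passed, and *ISG15* had an unadjusted limma p of 0.00724 (adjusted p = 0.9999) against 0.119 without it, its values at 0 in Tough 1 and Tough 5 included. Same-numbered animals did not deviate together (correlations of -0.22 to 0.02), so the numbers do not pair them. Scaling by median of ratios or quantiles gave 279 and 291 genes with an unadjusted p ≤ 0.05, of which 136 and 142 were higher in Tough, against 66 of 225 with the deposited FPKM.

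The limits are 6 animals a group, low levels of all members, no read counts and no lane of each library.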
